A study of Mus musculus with 8 samples.

Results

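The comparison asked what mouse embryonic stem cells share when any of 3 different genes is depleted. It set 6 knockdown arrays against 2 control arrays, which together are all 8 arrays of the series. NG4 embryonic stem cells were reverse transfected with small interfering RNAs, or siRNAs, which lead to the loss of a matching messenger RNA. The targets were Sox2 (siSox2), Psmd14 (siPsmd14) and Ddb1 (siDdb1), and the control siRNA matched none of them (siNonTarget), with 2 arrays for each. RNA was taken 48 h later, amplified and hybridised to Affymetrix arrays. All groups, the control included, were transfected, and the labels name no untransfected sample. The labels do not say whether replicates were separate cultures, so p-values reflect how much these arrays varied, and that variation may be technical.

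Values are log2 intensities per probe set, and each gene was read by 1 probe set, the brightest over the 8 arrays among those that name it alone. The pooled change of a gene is the mean of the 3 knockdown group means minus the control mean, on the log2 scale. A gene was called when the limma test of that contrast, fitted on all 45037 probe sets, had a Benjamini-Hochberg adjusted p of at most 0.05. The common response is the set of genes for which all 6 knockdown arrays lay above both control arrays, or all 6 lay below both. The 3 knockdowns share the same control arrays. A common change of the knockdowns therefore cannot be told apart from a departure of the 2 control arrays from the rest. In bulk RNA, fewer cells of a type and less RNA per cell cannot be told apart either.

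Embryonic stem cells keep their undifferentiated state through a network of transcription factors in which Sox2 acts with Oct4 (Pou5f1) and Nanog. The outer factors of that network, such as Klf4, Klf2, Esrrb and Nr0b1, mark the naive state and are lost early when cells begin to differentiate. Psmd14 is the deubiquitinase that removes ubiquitin chains from substrates at the lid of the proteasome. Ddb1 links CUL4 ubiquitin ligases to their substrate receptors, and it also takes part in the recognition of ultraviolet DNA damage. Damage and protein stress commonly act through p53, whose targets include the cell cycle inhibitor Cdkn1a and the p53 ligase Mdm2.

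The transcripts aimed at were read before the comparison. Ddb1 read 11.88 and 11.81 in siNonTarget and 9.67 and 10.73 in siDdb1, and all 4 arrays of the other knockdowns lay above both controls. Sox2 read 12.23 and 12.47 in siNonTarget and 12.10 and 11.84 in siSox2. Psmd14 read 12.07 and 11.97 in siNonTarget and 11.88 and 11.75 in siPsmd14. The arrays of each targeted group thus lay below both controls for their own gene, by little for Sox2 and Psmd14. Against the controls alone, limma called none of these: Ddb1 in siDdb1 (-1.65, adjusted p = 0.147), Sox2 in siSox2 (-0.38, adjusted p = 0.301) and Psmd14 in siPsmd14 (-0.21, adjusted p = 0.522). The labels are therefore borne out by transcript level for siDdb1 more than for the other groups. None of the 3 genes was called in the pooled contrast (pooled log2 changes of -0.16 for Sox2, -0.10 for Psmd14 and -0.39 for Ddb1, limma adjusted p of 0.674, 0.767 and 0.534). The stem cell label was borne out by Pou5f1, at 12.85 to 13.3 on the 8 arrays, and Nanog, at 11.35 to 12.13. The fibroblast collagens Col1a1 (3.51 to 4.20) and Col3a1 (3.20 to 3.49) lay below the median of all probe sets, 4.81, on each array. Of the 25 measured fibroblast and feeder markers, only 11 had a control mean below that median. These collagens therefore do not stand for the whole list.

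Of 18193 genes, 160 were called in the pooled contrast (0.879%), 131 higher and 29 lower. The common response held 2413 genes (13.3%), of which 1068 lay above both controls in all 6 arrays (5.87%) and 1345 below (7.39%). Most of these differed little: the median gap between the nearest knockdown and control arrays was 0.07 log2 units. If all arrays were interchangeable, array order alone would place a gene in the common response with a probability of 0.0714. The share of 13.3% is to be read against that figure, and the excess over it was not tested. Membership of a single gene is therefore weak evidence of a shared change. Genes that were both called and in the common response numbered 131 (0.72%), with 104 higher (0.572%) and 27 lower (0.148%). Their limma adjusted p lay between 0.00874 and 0.0485. Rises thus outnumbered falls among called genes, while falls outnumbered rises in the common response as a whole. That last order turned once a minimum gap between the nearest arrays was asked for: over probe sets 54.4% of 721 were higher at a gap of at least 0.2 log2 units and 84.3% of 108 at 0.5, against 41.3% of 5296 with no minimum. The called rises had a median pooled change of 1.19 (range 0.64 to 2.51) and the called falls one of -0.94 (range -1.26 to -0.62). The direction is part of how these 131 genes were chosen, and no test of it is given.

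The calls rested on both control arrays. Over probe sets, 262 were called with all 8 arrays (0.582%), 5296 lay on 1 side in all 6 knockdown arrays (11.8%) and 221 did both (0.491%). Of the 262, none was still called by limma without siNonTarget replicate 1 or without siNonTarget replicate 2, nor was any other probe set (3957 and 4068 at an unadjusted p under 0.05, against 5812 with all arrays). With 1 control array left, its spread was assumed to be that of the other groups, and the standard error of the contrast is larger by construction. Leaving out a knockdown array gave 679 without siSox2 replicate 1, 102 without siPsmd14 replicate 1, 455 without siPsmd14 replicate 2 and 121 without siDdb1 replicate 1. The limma count was also 0 when the 6 knockdown arrays were treated as 1 group, so that differences between knockdowns entered the spread (3651 at an unadjusted p under 0.05). The plot of calls with arrays left out shows these counts side by side.

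**Figure D1:**
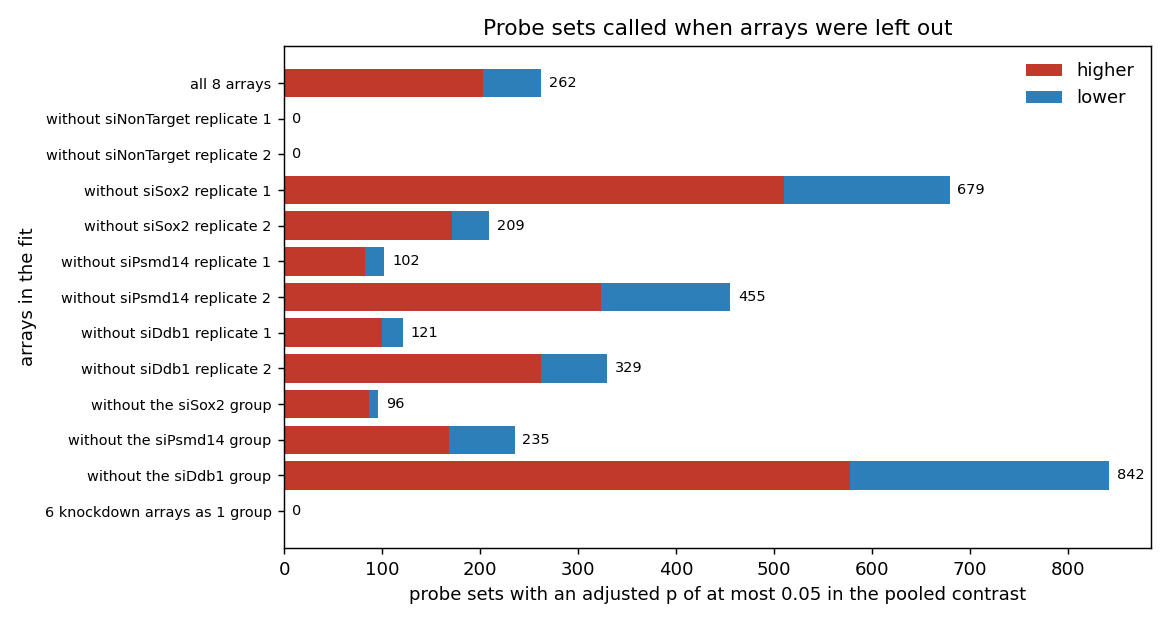
Number of probe sets called in the pooled contrast (horizontal axis, adjusted p of at most 0.05) by the arrays used (vertical axis), split into higher (red) and lower (blue). A whole knockdown group was left out of the contrast only, and its arrays still entered the spread. The count is 262 with all 8 arrays, 0 without either control array, and between 102 and 679 without a single knockdown array.

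The 18S ribosomal RNA control probe set, a sign of how much ribosomal RNA was labelled, read 10.85 and 11.25 in siNonTarget. In every group it read higher on replicate 2 than on replicate 1. It was highest on siPsmd14 replicate 2 (12.51) and siDdb1 replicate 2 (12.05), and the remaining 4 knockdown arrays lay between 10.42 and 11.4. Without those 2 arrays, left out after the data were seen, 621 probe sets were called. The gap between the Actb probe sets at the 3' and 5' ends, which widens as RNA degrades, was 0.346 log2 units on siPsmd14 replicate 1, and the other arrays lay between 0.0962 and 0.214. The part of either reading in the results was not tested further.

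The 12 rises with the largest change in the knockdown where they changed least were Gbp2b, Krt19, Cald1, Ccn1, Cryab, Rnf128, Anxa3, Cdk14, Krt7, Cdkn1a, Sct and Pdlim2. Their pooled changes ran from 1.23 to 2.51, and the smallest of their 3 knockdown changes from 1.02 to 1.60. Gbp2b, an interferon-inducible guanylate-binding protein gene, read 3.83 and 4.42 in siNonTarget and 5.54 to 6.67 in the 6 knockdown arrays. Its neighbour and close relative Gbp2 lay above both controls in all 6 arrays but was not called (1.64, SE 0.30, limma adjusted p = 0.0575), and the probe sets of such similar genes may share signal.

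**Figure D2:**
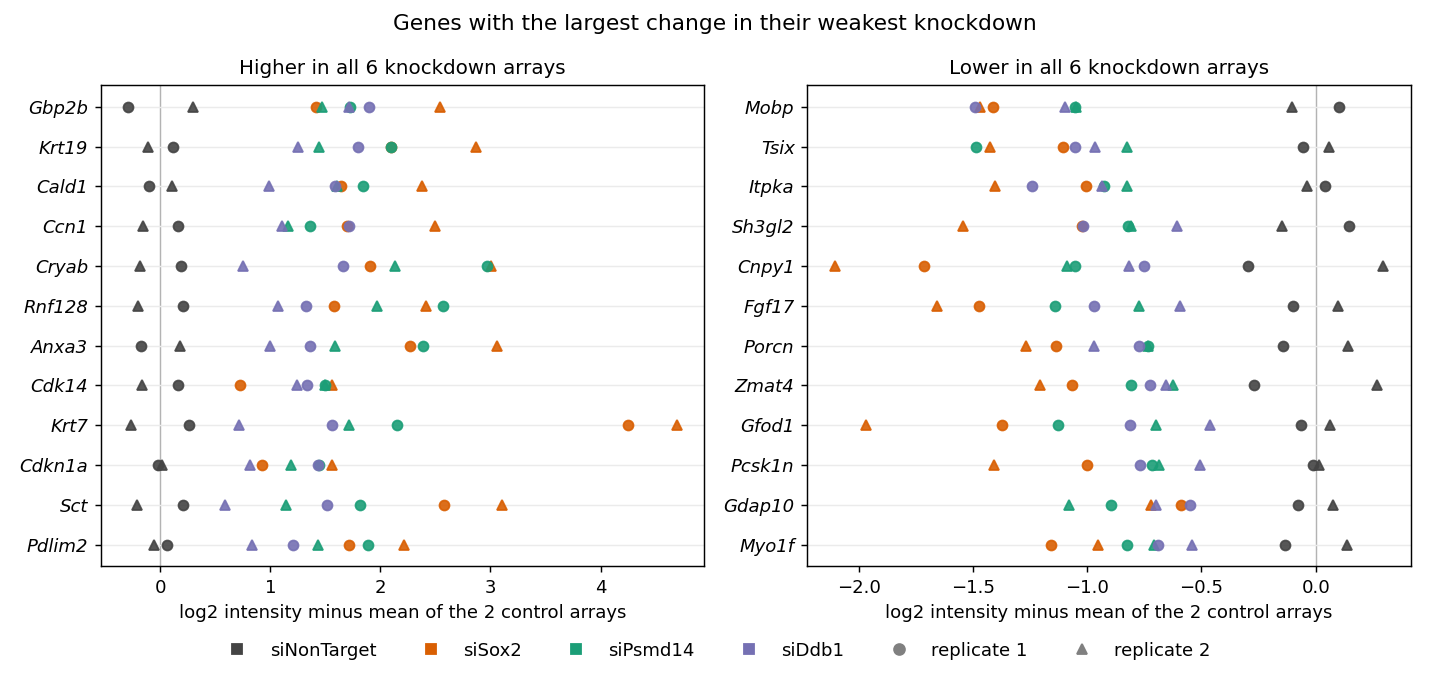
Log2 intensity minus the mean of the 2 control arrays (horizontal axis) on each of the 8 arrays for 12 genes that rose (left) and 12 that fell (right), with colours for groups and shapes for replicates. The knockdown points of each gene lie on 1 side of both control points, as the choice of genes requires, and siDdb1 points often lie nearest to the controls.

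Keratins of simple epithelia, the intermediate filaments of the trophectoderm and of many epithelial tissues, were called in 4 cases. Krt19 read 7.74 and 7.51 in siNonTarget, against 9.72 and 10.50 with siSox2, 9.72 and 9.07 with siPsmd14 and 9.42 and 8.87 with siDdb1. The knockdown arrays cleared the controls by 1.13 log2 units (pooled change 1.93, SE 0.24, 3.80-fold, n = 6 and 2 arrays, limma adjusted p = 0.0207). Krt7 read 5.95 and 5.42 in siNonTarget, against 9.94 and 10.38 with siSox2, 7.84 and 7.40 with siPsmd14 and 7.24 and 6.40 with siDdb1, a pooled change of 2.51 (SE 0.24, 5.71-fold). Its rise was not of 1 size, since siSox2 stood well above the other knockdowns (F test between the 3 knockdowns, limma adjusted p = 0.0018). The partners Krt8 and Krt18, which pair into 1 filament and lie on chromosome 15, rose by 2.12 each, with siSox2 highest (3.09 and 3.30), then siPsmd14 (2.63 and 2.37) and siDdb1 (0.64 and 0.67).

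The 29 gene lists read here and below were chosen with earlier results of these data known. Their shares, set beside those of all genes, are descriptions and not tests. Of 28 measured genes of the actin cytoskeleton and of cell adhesion, 7 were called higher in the pooled contrast (0.72% of all genes were) and none lower, and 6 of the 7 were in the common response. Of the 28, 16 lay above both controls in all 6 arrays (57.1%, against 5.87% of all genes). The median pooled change was 0.73 (all genes -0.01), with group medians of 1.03 in siSox2, 0.66 in siPsmd14 and 0.37 in siDdb1. All 28 had a pooled change above 0, down to 0.00 for Actb, which is used as a reference gene. Members were the actin regulator caldesmon (Cald1), the actin-severing gelsolin (Gsn), the smooth muscle gene transgelin (Tagln), the matricellular growth regulator Ccn1 and the membrane-binding annexin Anxa3. Lcp1, an actin-bundling protein, was the seventh call (1.13), and this came from siSox2 (4.05), with -0.09 in siPsmd14 and -0.57 in siDdb1.

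Cald1 read 9.59 and 9.80 in siNonTarget and 10.69 to 12.07 in the knockdown arrays (pooled change 1.67, SE 0.21, 3.19-fold, limma adjusted p = 0.0207). Ccn1 read 8.35 and 8.04 in siNonTarget, against 9.89 and 10.69 with siSox2, 9.56 and 9.36 with siPsmd14 and 9.91 and 9.30 with siDdb1 (1.59, SE 0.23, adjusted p = 0.0262). The knockdown arrays cleared the controls by 0.89 log2 units for Cald1 and 0.95 for Ccn1, and each gene had a further probe set that was called. Gsn read 6.80 and 6.37 in siNonTarget, against 8.64 and 9.31 with siSox2, 9.65 and 9.17 with siPsmd14 and 7.41 and 7.17 with siDdb1, so that siDdb1 lay nearest to the controls (changes of 2.39, 2.83 and 0.70). Anxa3 read 7.70 and 8.05 in siNonTarget and 8.87 to 10.94 in the knockdown arrays, a 3.85-fold rise. Tagln read 9.44 and 9.64 in siNonTarget and 10.33 to 11.74 in the knockdown arrays (2.82-fold, adjusted p = 0.028).

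Tagln is also the 1 fibroblast marker of 25 that was called, and 3 of 25 lay above both controls in all 6 arrays (5.87% of all genes did). The summed intensity of that list was 9586 to 9873 in siNonTarget, 17489 to 23278 in siSox2, 13603 to 15319 in siPsmd14 and 12026 to 12551 in siDdb1. Of the collagens on the list, Col1a1 and Col3a1 stayed below the median of all probe sets, as given above. Of the 25 markers, 11 had a control mean below that median, and 19 had a pooled change above 0. Acta2 (0.92) and Lgals1 (0.91) were not called.

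**Figure D3:**
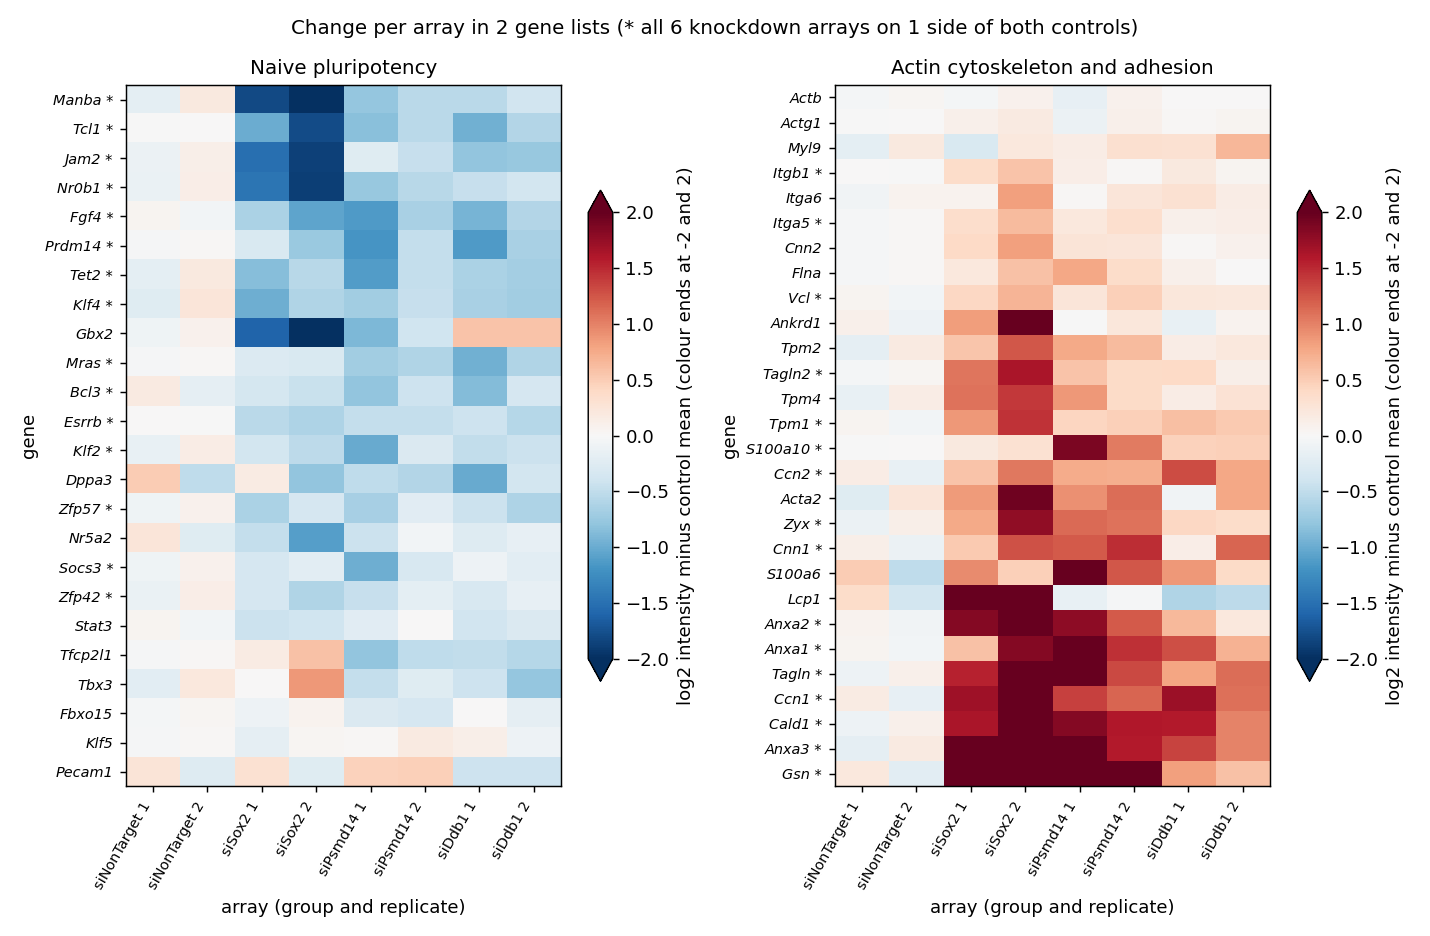
Log2 intensity minus the control mean (colour) for each measured gene (rows) of the naive pluripotency and the actin and adhesion lists on each of the 8 arrays (columns). Of the naive genes 15 of 24 are marked as lower in all 6 knockdown arrays, and of the actin and adhesion genes 16 of 28 as higher.

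Immediate early genes, which respond to growth factors and stress within minutes, were called in 4 of 22 cases, all higher (0.72% of all genes were called higher). Jun, which forms AP-1 dimers with Fos proteins, read 6.95 and 6.72 in siNonTarget, against 8.75 and 9.35 with siSox2, 8.93 and 8.63 with siPsmd14 and 8.03 and 7.59 with siDdb1 (pooled change 1.71, SE 0.19, 3.28-fold, limma adjusted p = 0.0181). Dusp1, a phosphatase that inactivates MAP kinases, read 9.59 and 9.38 in siNonTarget and 10.18 to 10.82 in the knockdown arrays, and its 3 changes were nearly equal (1.01, 1.18 and 0.99). Klf6, a zinc finger factor, rose by 0.92, from 1.62 in siSox2 down to 0.24 in siDdb1. The fourth call, the AP-1 subunit Fosl1 (pooled change 2.18), belonged to siPsmd14 above all, at 8.69 and 8.46 against 3.76 and 4.21 in siNonTarget. It was not in the common response, since siSox2 replicate 1, at 4.15, lay between the controls. Of the list 7 genes lay above both controls in all 6 arrays (31.8%, against 5.87% of all genes) and none below, while Egr1 had a pooled change of -0.79 without being called.

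The promoters of Jun, Dusp1 and Ccn1, stress-responsive genes called in the pooled contrast, are shown for the motifs they hold near their start. The stretches below are the 250 bases before the annotated start on the gene's own strand, 5′ to 3′, from RefSeq on GRCm38.p6. Near variants stay in lower case, since capitals mark only exact matches, on either strand, to 7 motifs. The first is the CCAAT box, spelled by its name. The TATA box was searched as TATAAA, the core element that places the start of transcription. The GC box was searched as GGGCGG, which factors of the Sp1 family bind. The TEAD site was searched as GGAATG, bound by the partners of the YAP coactivator. The cAMP response element was searched as TGACGTCA, bound by CREB and ATF proteins. The AP-1 site was searched as TGANTCA, bound by Jun and Fos dimers. The heat shock element was searched as GAANNTTC, a core of sites bound by heat shock factors. None of the matches overlap, though some stand end to end.
Jun, chr4:95052223-95052472, minus strand: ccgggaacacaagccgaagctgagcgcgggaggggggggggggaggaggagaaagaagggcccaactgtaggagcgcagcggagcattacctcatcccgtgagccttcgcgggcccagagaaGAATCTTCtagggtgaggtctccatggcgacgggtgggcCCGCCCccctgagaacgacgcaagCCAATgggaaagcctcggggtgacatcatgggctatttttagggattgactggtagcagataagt
Dusp1, chr17:26508473-26508722, minus strand: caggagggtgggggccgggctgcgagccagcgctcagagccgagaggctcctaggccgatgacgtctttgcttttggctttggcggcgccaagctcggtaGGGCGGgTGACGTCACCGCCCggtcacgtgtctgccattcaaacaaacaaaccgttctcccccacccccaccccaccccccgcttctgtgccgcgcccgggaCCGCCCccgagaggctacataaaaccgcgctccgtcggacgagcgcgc
Ccn1, chr3:145649986-145650235, minus strand: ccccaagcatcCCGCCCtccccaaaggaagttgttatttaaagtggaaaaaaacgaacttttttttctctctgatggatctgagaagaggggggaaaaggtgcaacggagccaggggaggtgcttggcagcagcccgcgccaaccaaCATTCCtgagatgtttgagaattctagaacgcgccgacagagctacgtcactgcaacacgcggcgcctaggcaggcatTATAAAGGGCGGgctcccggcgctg
Jun carried a CCAAT box 65 to 61 bases before its start, Dusp1 a cAMP response element at 143 to 136 bases, and Ccn1 a TATA box at 25 to 20 bases. Of the 7 motifs, the GC box was found in all 3 stretches.

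Over the whole window of 300 bases, which runs to 50 bases past the start, 79 of the 104 called rises and 20 of the 27 called falls had a promoter in the table, as did 14452 genes on the array. A GC box stood in 70.9% of the rises, 12 of 20 falls and 54.0% of all these genes. An AP-1 site stood in 9 of 79 rises (11.4%), 6 of 20 falls (30.0%) and 6.33% of all genes, and a TATA box in 16.5%, 15.0% and 9.87%. The CCAAT box was found in 25.3%, 5.0% and 38.2%, the TEAD site in 7.59%, 15.0% and 13.1%, the cAMP response element in 2.53%, 5.0% and 2.68%, and the heat shock element in 5.06%, 0.0% and 6.34%. These shares describe the letters in the window and were not tested.

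Targets of p53 had pooled changes above 0 in 37 of 38 measured, though few were called. The exception was the repair gene Xpc (-0.35). Of the 38, 13 lay above both controls in all 6 arrays (5.87% of all genes did) and none below, and 2 were called higher (0.72% of all genes were). The list's median pooled change was 0.40, with group medians of 0.60 in siPsmd14, 0.62 in siDdb1 and 0.11 in siSox2. Cdkn1a, the p21 inhibitor of cyclin-dependent kinases, read 8.41 and 8.45 in siNonTarget, against 9.36 and 9.99 with siSox2, 9.87 and 9.62 with siPsmd14 and 9.87 and 9.25 with siDdb1. Its changes of 1.24, 1.32 and 1.13 were close to each other (pooled change 1.23, SE 0.20, 2.34-fold, limma adjusted p = 0.0386), and its other probe set gave 1.07 without passing (adjusted p = 0.0536). Mdm2 read 10.12 and 10.05 in siNonTarget, against 10.61 and 10.57 with siSox2, 11.81 and 11.62 with siPsmd14 and 11.26 and 10.92 with siDdb1 (1.05, SE 0.12, adjusted p = 0.0181). Its rise differed between the knockdowns, being least in siSox2 (0.50) and most in siPsmd14 (1.63, limma F test adjusted p = 0.0115). The apoptosis genes Apaf1 (0.94, adjusted p = 0.0575), which forms the apoptosome, and Casp8 (0.73, adjusted p = 0.104), the initiator caspase of death receptors, lay above both controls in all 6 arrays and did not pass.

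Among stress chaperones 1 of 19 was called higher (0.72% of all genes were). Cryab, a small heat shock protein that holds unfolded proteins, read 7.10 and 6.72 in siNonTarget, against 8.82 and 9.92 with siSox2, 9.88 and 9.05 with siPsmd14 and 8.57 and 7.66 with siDdb1 (pooled change 2.07, SE 0.34, 4.20-fold, limma adjusted p = 0.0394). A further probe set of Cryab gave 1.80 (adjusted p = 0.0715), and a dim one gave -0.08. The list's median was 0.07. The autophagy receptor Sqstm1 (1.03, adjusted p = 0.0536) and the malic enzyme gene Me1 (0.74), both NRF2 targets, were not called.

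Several of the 12 rises belonged to none of the lists. Rnf128, a transmembrane ubiquitin ligase, read 7.46 and 7.05 in siNonTarget and 8.32 to 9.82 in the knockdown arrays (1.82, SE 0.24). Cdk14, a cyclin-dependent kinase, rose by 1.31, least in siSox2 (1.14), but its other 2 probe sets, at control means of 3.07 and 3.16, gave -0.07 and 0.01. Sct, the gene of the hormone secretin, rose 3.46-fold and Pdlim2, which binds actin fibres, 2.92-fold. The changes of Ccng2, an atypical cyclin, spanned the smallest range for their size (0.83, 0.86 and 0.85), although its other probe set gave -0.01. Ecscr (0.86) followed with 0.84, 0.80 and 0.93.

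Trophectoderm and placental genes were called in 8 of 23 cases, all higher (0.72% of all genes were), and 7 of these were in the common response (0.572% of all genes). Of the 8, 4 are the keratins above. Cdx2, the homeobox factor that directs trophectoderm fate, read 5.10 and 5.19 in siNonTarget, 6.73 and 6.87 in siSox2, 5.63 and 5.40 in siPsmd14, and 5.68 in each siDdb1 array (pooled change 0.85, SE 0.11, limma adjusted p = 0.0207). A second Cdx2 probe set, at a control mean of 4.43, gave 0.27 and was not called. In the first, the change in siSox2 (1.65) stood apart from 0.37 and 0.54 in the others (limma F test adjusted p = 0.00268). Gata3 (1.19) and Ascl2 (1.53), trophoblast factors named after their values were seen, had the same shape, with 2.33 and 3.50 in siSox2 and 0.34 to 0.84 elsewhere. Plac1, a placental gene called at 2.45, was far higher in siSox2 (6.23) than elsewhere, with 1.04 in siPsmd14 and 0.07 in siDdb1, and it was not in the common response. Bmp4 went the other way without passing (-0.83, adjusted p = 0.0526).

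Of 22 primitive endoderm genes 3 were called higher and 1 lower (0.72% and 0.159% of all genes), and 2 were called in the common response, both higher (0.572% of all genes). The basement membrane collagen Col4a2 rose by 1.73 (siSox2 3.28, siPsmd14 1.70, siDdb1 0.22), and the endocytic adaptor Dab2 by 1.39 (2.67, 0.53 and 0.98). The 3 other probe sets of Dab2, at control means of 3.51 to 3.86, gave 0.17 to 0.64, and none was called. The partner collagen Col4a1 was also called (1.30) and was not in the common response. Lama1, a laminin chain of the same membrane, fell by 1.24 on the log2 scale with most of it in siSox2 (-2.94, against -0.22 in siPsmd14 and -0.55 in siDdb1). Both collagen and laminin values differed between the knockdowns (limma F test adjusted p of 0.00109 for Col4a2 and 0.000593 for Lama1).

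Of 24 measured naive pluripotency genes, 15 lay below both controls in all 6 arrays (62.5%, against 7.39% of all genes) and none above, while 3 were called (0.159% of all genes were called lower). The median pooled change was -0.52, with -0.48 in siSox2, -0.59 in siPsmd14 and -0.51 in siDdb1. Manba, a lysosomal mannosidase, read 10.31 and 10.72 in siNonTarget, against 8.71 and 8.38 with siSox2, 9.74 and 9.97 with siPsmd14 and 9.98 and 10.14 with siDdb1 (-1.03, SE 0.15, limma adjusted p = 0.0263). Nr0b1, a nuclear receptor of the pluripotency network, read 10.85 and 11.10 in siNonTarget and 9.09 to 10.61 in the knockdown arrays (-0.91, adjusted p = 0.033). Jam2, a junction protein gene, fell by 0.94 on the log2 scale. Manba, Nr0b1 and Jam2 had their largest changes in siSox2 (-1.97, -1.67 and -1.69), with -0.66, -0.65 and -0.36 in siPsmd14 and -0.46, -0.42 and -0.77 in siDdb1, and each differed between knockdowns (F test adjusted p of 0.00542 for Manba, 0.0103 for Nr0b1 and 0.00689 for Jam2).

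Values of several members that were not called follow. Fgf4, the growth factor made by stem cells, read 10.39 and 10.29 in siNonTarget and 9.21 to 9.75 in the knockdown arrays, with changes of -0.85, -0.89 and -0.76 (pooled change -0.83, limma adjusted p = 0.0763). Klf4 had -0.79, -0.58 and -0.67, Tet2 -0.70, -0.80 and -0.65, and Esrrb -0.58, -0.48 and -0.49, in the order siSox2, siPsmd14 and siDdb1. Gbx2 had -1.81 in siSox2, -0.65 in siPsmd14 and 0.57 in siDdb1, and was not in the common response. Of 21 general pluripotency genes none was called (0.879% of all genes were), and the median was -0.16. In all 6 arrays 5 of them lay below both controls and 1 above (7.39% and 5.87% of all genes). The smallest p-values of this list were those of Mybl2, a cell cycle factor (-0.47, limma adjusted p = 0.0906), and Gdf3, a TGF-beta ligand (-0.45, adjusted p = 0.151). Nanog (-0.36) and Pou5f1 (-0.20) also lay below both controls in all 6 arrays without being called.

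The 12 falls that were largest in their weakest knockdown were Mobp, Tsix, Itpka, Sh3gl2, Cnpy1, Fgf17, Porcn, Zmat4, Gfod1, Pcsk1n, Gdap10 and Myo1f. Mobp, a myelin protein gene, read 5.82 and 5.62 in siNonTarget, 4.31 and 4.25 in siSox2, 4.67 on each siPsmd14 array, and 4.23 and 4.62 in siDdb1 (-1.26, SE 0.13, limma adjusted p = 0.0175). Its other 4 probe sets gave -0.66 to -0.14, and none passed. Itpka, a kinase of inositol trisphosphate, fell by 1.06, and the endophilin gene Sh3gl2 by 0.97 on the log2 scale.

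Tsix, the transcript antisense to Xist, read 6.21 and 6.33 in siNonTarget, against 5.17 and 4.84 with siSox2, 4.78 and 5.44 with siPsmd14 and 5.21 and 5.30 with siDdb1 (-1.14, SE 0.17, limma adjusted p = 0.0306). Its changes of -1.26, -1.16 and -1.01 had the smallest range for their size among the 27 called falls. Without knowledge of strand, signal from Xist and Tsix cannot be told apart where they overlap. Fgf17, an FGF ligand of the embryo, read 7.93 and 8.13 in siNonTarget and 6.37 to 7.43 in the knockdown arrays (-1.10, SE 0.15), and Cnpy1, an FGF signalling regulator, fell by 1.26 on the log2 scale. Porcn, which lipidates Wnt proteins for secretion, read 7.68 and 7.96 in siNonTarget and 6.55 to 7.08 in the knockdown arrays (-0.94, SE 0.12, adjusted p = 0.0207). Gfod1 fell by 1.08 on the log2 scale, but its other probe set, at a control mean of 3.97, gave 0.04.

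Of the 131 genes called in the common response, 67 differed in size between the 3 knockdowns by the limma F test, which leaves the control mean out. The share over all genes was 5.33% (3.63% of probe sets, 1637). The 131 were chosen by the pooled test of the same fit, with the same spread estimates. A small spread or a large change in 1 knockdown favours both tests, so these shares are not an independent comparison. The count over probe sets fell to 463 without siSox2 replicate 2, 808 without siDdb1 replicate 1, 1018 without siPsmd14 replicate 1 and 879 without either control array. Against the shared controls, 778 genes were called in siSox2 alone (4.28%), 343 in siPsmd14 (1.89%) and 8 in siDdb1 (0.044%). For the other 64 the test did not pass, which does not show equal changes. Among the 104 rises siSox2 gave the largest change in 64 genes, siPsmd14 in 36 and siDdb1 in 4, and siDdb1 gave the smallest in 63. Among the 27 falls siSox2 gave the largest in 24. The median change of the rises was 1.61 in siSox2, 1.22 in siPsmd14 and 0.78 in siDdb1, and that of the falls -1.32, -0.72 and -0.64. A change of at least 2-fold on average was seen in 81 of the 131, and of at least 2-fold in each of the 3 knockdowns in 16.

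**Figure D4:**
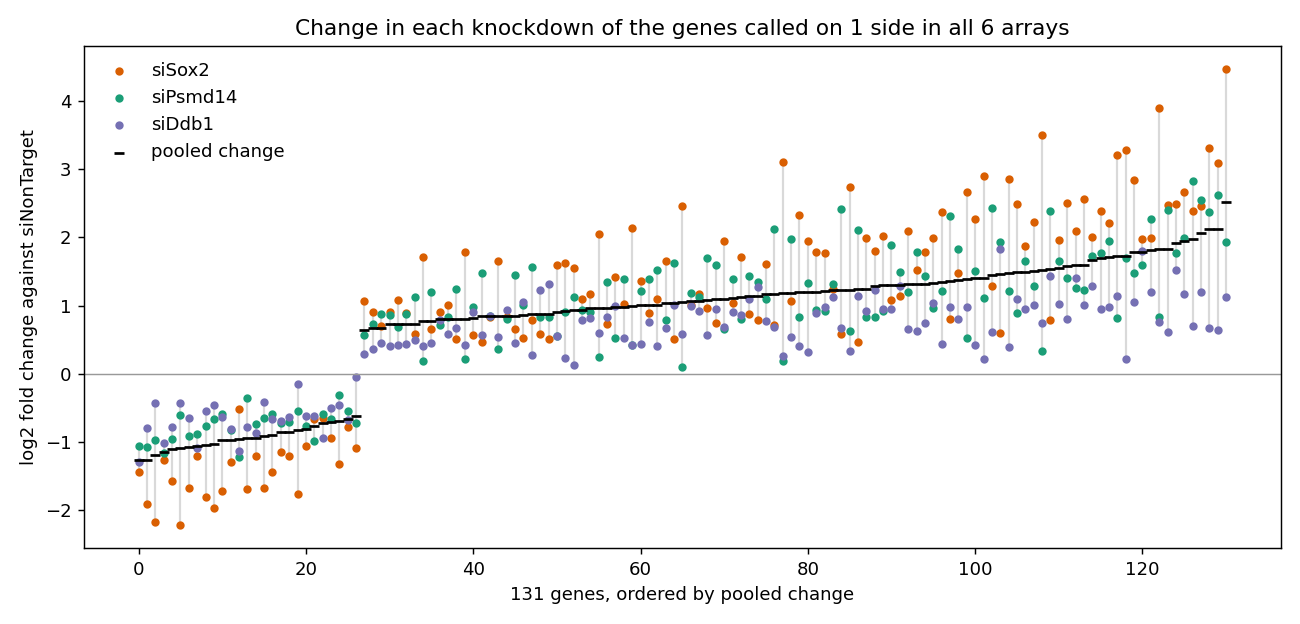
Log2 fold change against siNonTarget (vertical axis) in siSox2, siPsmd14 and siDdb1 (coloured points) and pooled (black dashes) for the 131 genes called in the common response, ordered by pooled change (horizontal axis). The siSox2 points lie farthest from 0 for 64 of 104 rises and 24 of 27 falls.

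The 3 genes with the smallest F test p among these 131 were Afap1l2, Mbnl3 and Nrk. Mbnl3, a splicing regulator, read 7.28 and 7.11 in siNonTarget, 10.06 and 10.52 in siSox2, and 7.33 to 7.57 on the 4 other knockdown arrays, so that it entered the common response by a gap of 0.05. Nrk, a kinase gene of the placenta, had changes of 3.89 in siSox2, 0.84 in siPsmd14 and 0.77 in siDdb1. At the edge of the rule, Fthl17a, Ccdc40 and Apob cleared the controls by 0.0012, 0.0033 and 0.005 log2 units, while Tinagl1, Mex3b and Prss8 missed by 0.0023, 0.0023 and 0.0051. Of the 29 called genes outside the common response 27 were higher. Tinagl1 rose by 1.91 (2.94, 2.61 and 0.17 in the 3 knockdowns), the growth factor gene Igf2 by 1.60 (3.78, 0.66 and 0.35) and the placental gene 3830417A13Rik by 2.40 (5.12, 1.75 and 0.35). The 2 falls were Lama1 and the co-receptor gene Nrp2 (-2.43, -0.08 and -0.78).

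Of the 29 lists, 8 held a gene called in the common response, and these are described above. In the other 21 none did, and the 2 genes with the smallest p of each were not called, with 1 exception. Cebpb, a factor of the integrated stress response, was called at 1.21 (2.30 in siSox2, 1.25 in siPsmd14 and 0.06 in siDdb1) outside the common response. Proteasome subunits had a median of 0.07, with 0.31 in siPsmd14, -0.05 in siSox2 and -0.03 in siDdb1. No subunit of 38 was called (0.879% of all genes were), and 1 (Psmc4, 0.43, limma adjusted p = 0.229) lay above both controls in all 6 arrays. CUL4-DDB1 ligase components had a median of -0.04 and no call among 26. Of these, 5 lay above and 2 below both controls in all 6 arrays (5.87% and 7.39% of all genes). Interferon and RNA sensing genes, which transfected RNA can induce, had a median of -0.04. Of the 25, 2 lay above and 4 below both controls in all 6 arrays (5.87% and 7.39% of all genes). The list's smallest p-values went in opposite directions, with Gbp2 at 1.64 (limma adjusted p = 0.0575) and Oas1a at -0.69 (limma adjusted p = 0.0917).

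**Figure D5:**
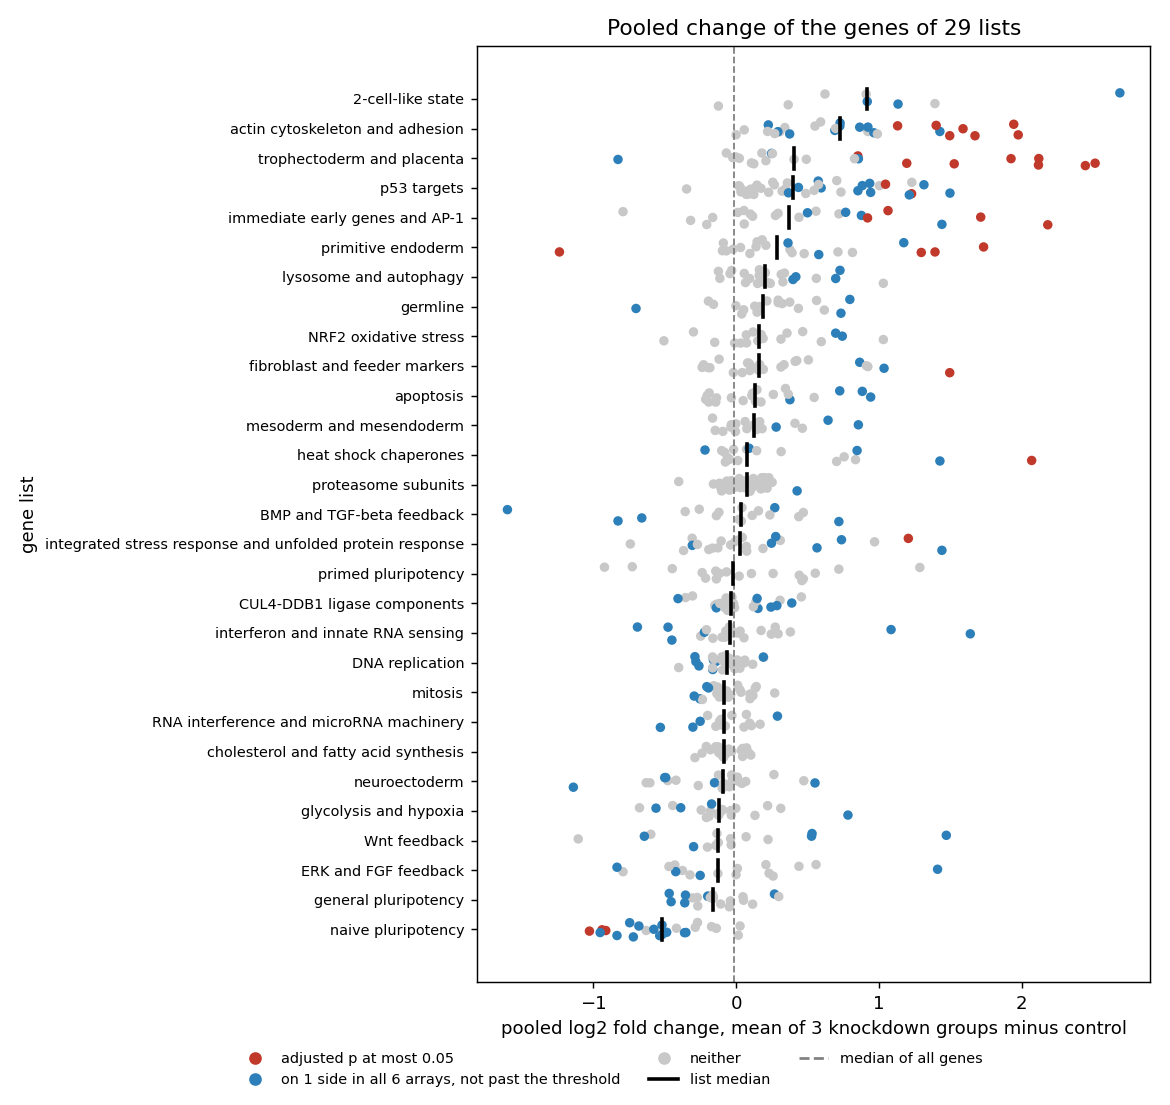
Pooled log2 fold change (horizontal axis) of the measured genes of 29 lists (vertical axis), with called genes in red, other genes of the common response in blue, the rest in grey, a black bar at each list's median and a dashed line at the median of all genes. The actin and adhesion list has a median of 0.73 and the naive pluripotency list one of -0.52, against -0.01 over all genes.

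The medians of the proliferation lists lay near that of all genes (-0.01) and below it. DNA replication had a median of -0.06 and mitosis one of -0.08. No gene was called among their 36 and 27 (0.879% of all genes were), and 28 and 18 had a pooled change below 0. In DNA replication 6 genes lay below both controls in all 6 arrays and 1 above, and in mitosis 4 lay below and none above. Over all genes 7.39% lay below and 5.87% above. Primed pluripotency genes had a median of -0.02 and, among 18 measured, no member in the common response (13.3% of all genes were). Fgf5, the marker of that state, had a pooled change of 1.29 (adjusted p = 0.0899) and a control mean of 3.53, below the array median. Cholesterol and fatty acid synthesis had no member in the common response either, with medians of 0.26 in siSox2, -0.32 in siPsmd14 and -0.15 in siDdb1. The RNA interference machinery, which carries out the knockdowns, had a median of -0.09, and its smallest p-values were those of Mov10 (-0.53, adjusted p = 0.193) and Tnrc6a (0.29).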

How the data were processed

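The labels describe total RNA of NG4 mouse embryonic stem cells 48 h after siRNA transfection, amplified from 5 ng with the Ovation V2 system and labelled with biotin. RMA produced the deposited intensity values, per the submitters' processing notes. They are linear, 1 per probe set, with array medians of 27.37 to 28.83 units. RMA usually equalises the distributions of arrays, so a change is measured against the other probe sets, and total RNA per cell is not seen. Array number limits the precision: the median standard error of a pooled change was 0.123, or 0.279 on either side at 95%.

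Log2 was taken, 64 control probe sets were left out, and 45037 were tested in limma 3.58.1 under R 4.3.3 (1 coefficient per group, eBayes without trend, 5.02 prior and 9.02 total degrees of freedom). GEO's platform annotation gave 34945 probe sets 1 symbol, 932 several and 9160 none, which made 18193 genes. Of the 143 other probe sets of the 131 genes called in the common response, 119 had the same sign and none was called in the opposite direction. The scripts were tested on simulated data.

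The members and the 29 gene lists were chosen with earlier results of these data known. Named were the targets, the 12 rises and 12 falls largest in their weakest knockdown, up to 4 called members of the common response per list or otherwise the 2 with the smallest p, the 5 largest called changes each way outside the common response, and 3 genes each by F test and by evenness. Other genes were named after their values were seen. Alternatives were other filters, normalizations, models, thresholds and arrays left out. The replicate number was not a block, since the labels do not say that it pairs the arrays. Correlations of replicate differences between groups ran from -0.217 to 0.242, which does not settle whether it does. The 18S reading was higher on replicate 2 than on replicate 1 in every group.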

Additional observations from a re-analysis of the deposited data

Results flagged for a closer look

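The size of the change differed between the 3 knockdowns in 67 of the 131 genes called in the common response (limma F test, adjusted p of at most 0.05), so a pooled value stands for unequal changes in these. The 18S ribosomal RNA probe set, which no comparison used, read above both control arrays (10.85 and 11.25 log2 units) on 4 knockdown arrays, at 11.397 on siSox2 replicate 2, 12.51 on siPsmd14 replicate 2, 11.28 on siDdb1 replicate 1 and 12.05 on siDdb1 replicate 2. Its part in the results was not tested beyond leaving out the 2 highest arrays.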

How the results depend on the processing

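Counts are of probe sets. The pooled contrast called 262, the common response held 5296, 221 were in both, and 1637 differed between knockdowns. Leaving out 1 array in turn gave 0 to 679, 6108 to 14277, 0 to 544 and 463 to 2365 in that order, with 0 called without either control array. A whole group was left out of the contrast and of the 1-side rule, while its arrays still entered the spread. Without the siSox2, siPsmd14 or siDdb1 group in this sense, 96, 235 and 842 were called. On 1 side lay 8781, 8317 and 9759, since fewer arrays must agree, and 90, 205 and 759 did both. The 2 arrays with the highest 18S reading left out gave 621 called, 8903 on 1 side and 486 in both. With the 6 knockdown arrays as 1 group both counts that use the test were 0. An adjusted p of 0.01 left 5 called, 3 in both and 419 that differed between knockdowns, and a 2-fold minimum left 157 and 134. With dim probe sets left out, the common response held 3213 of 22519 or 3093 of 21481 tested. With 1 probe set per gene it held 2413 of 18193 (13.3%, against 11.8% of all 45037). It fell to 721 (54.4% higher) with a gap of at least 0.2 log2 units and to 108 (84.3% higher) with 0.5, against 41.3% higher with no minimum. Under the other alternatives these counts stayed within 1.5 times: array medians subtracted, quantile normalization, trend and robust, and array weights. With a replicate block 235 were called, 190 were in both and 1582 differed between knockdowns. Of the 94 named genes 51 were called, and all 51 calls were lost without either control array and 39 without the siSox2 group. Without a control array, the changes of the 221 probe sets in both were a median of 1.046 times (siNonTarget replicate 1 left out) or 0.954 times (replicate 2) those with all arrays, with a direction that their choice fixes. The 1 reversal was that of Ddb1, at 0.24 without the siDdb1 group, as the choice of arrays implies. Beyond fewer arrays or probe sets in the comparison, the cause of these shifts was not tested. No gene in the dimmest of 4 equal groups by level was called in the common response.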

Other observations

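Members of the 2-cell-like list, genes that a small share of stem cells switch on, had a median pooled change of 0.91 over the 8 measured. Usp17la, 1 of a family of near-identical deubiquitinase genes whose probes may share signal, read 6.69 and 7.60 in siNonTarget, against 8.47 and 11.03 with siSox2, 9.48 and 10.09 with siPsmd14 and 10.87 and 9.06 with siDdb1. The pooled change of 2.69 (SE 0.64) did not pass (limma adjusted p = 0.117). Tcstv3 (1.13) and Spz1 (0.92) also lay above both controls in all 6 arrays, and neither was called.

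Signalling genes from the BMP and TGF-beta feedback list (Inhbb) and the ERK and FGF feedback list (Phlda1) also stood apart in all 6 arrays. Neither list held a called gene. Inhbb, the beta B subunit of inhibins and activins, read 8.54 and 8.84 in siNonTarget and 6.58 to 7.89 in the knockdown arrays (-1.60, SE 0.32, limma adjusted p = 0.0703). Its other probe set, at a control mean of 5.34, gave only -0.19 (limma adjusted p = 0.468). Phlda1 lay higher by 1.41 (adjusted p = 0.0551).

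The X chromosome held 12 of the 131 genes called in the common response, 1.94% of its 618 measured genes, against 0.72% over all genes. Chromosome 18 followed with 7 of 462 (1.52%), then chromosomes 9 (1.09%) and 16 (1.0%), and these shares were not tested. Of the 12 on the X chromosome 8 rose, among them Rnf128 and Nrk, and 4 fell, namely Nr0b1, Pcsk1n, Porcn and Tsix. When genes were split into 4 equal groups by mean level, no gene of the dimmest group was called in the common response by limma, while 385 of its 4549 genes lay on 1 side in all 6 arrays.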
